A study of Mus musculus with 4 samples.

Results

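Cytokine feedback was followed in 10 genes: the suppressor of cytokine signalling (SOCS) family genes *Cish*, *Socs1*, *Socs2* and *Socs3*, the transcription factor genes *Stat3*, *Stat5a* and *Stat5b*, the kinase genes *Pim1* and *Pim2*, and the Janus kinase gene *Jak3*. They were picked out by symbol, with no cut on their values, and all 10 were found among 23339 named gene entries at 31171 deposited loci. The samples were CD4+ T cells from the spleens of C57BL/6J mice aged 10 to 12 weeks, sequenced as 4 RNA libraries with 1 library for each genotype and time. The cKO mice were *Cic* f/f; *Cd4-Cre*, in which Cre made from the *Cd4* promoter deletes the floxed part of *Cic*, the gene of the transcriptional repressor Capicua, in all cells that descend from *Cd4*-expressing thymocytes, and the WT mice were *Cic* f/f, with the same floxed allele and no Cre. Day 3 cells had been kept for 3 days in wells coated with anti-CD3 and anti-CD28, each at 2 μg/ml, antibodies that stand in for antigen and co-stimulation, and day 0 cells were sorted and not stimulated. The number of mice behind each library is not given in the sources used here, and with 1 library per group no difference below has a replicate check or a test.

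When interleukin 2 (IL-2) or a related cytokine binds its receptor on a T cell, the Janus kinases JAK1 and JAK3, attached to the receptor chains, phosphorylate STAT5, which enters the nucleus and switches on target genes. STAT3 does the same downstream of IL-6 and IL-21. Among the known targets of these STATs are their own brakes, CIS (encoded by *Cish*) and the SOCS proteins, which bind the receptors, the kinases or their substrates and damp the signal, and the PIM kinases, which are active as soon as they are made and promote growth and survival. The transcript levels of these genes are therefore widely read as a record of recent cytokine signalling, although no phosphorylated STAT was measured here.

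Levels are in FPKM, counts of sequenced fragments scaled to transcript length and to the total mapped, so they can be compared between genes per length. Ratios are log2 ratios of FPKM after adding 0.1 to each value, computed for gene entries with at least 1 FPKM in either library of a comparison, and a gene was called higher or lower where the ratio was beyond 1.5 in size. The libraries were checked against markers of the labelled cell type. *Cd3e*, *Cd3g* and the other T-cell identity genes were well expressed in all 4, with a summed FPKM over 8 genes of 1300 in cKO and 1127 in WT cells on day 3 and 1305 in cKO and 1084 in WT cells on day 0. The labels call the day 0 cells naïve but give a CD44-high gate, whereas the methods of the study give CD44 low. *Tcf7*, a transcription factor gene of naïve and memory T cells, was at 191 FPKM in cKO and 182 FPKM in WT cells on day 0. *Cic* itself was at 12.2 FPKM in cKO and 17.8 FPKM in WT cells on day 3 and at 24.9 FPKM in cKO and 25.4 FPKM in WT cells on day 0, values of the whole locus that do not check the deletion of a part of it.

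RNA of other cells was present and its level differed between the genotypes on both days. The summed FPKM of 9 macrophage and monocyte markers was 5.50 in cKO and 13.6 in WT cells on day 3 and 82.2 in cKO and 257 in WT cells on day 0, with *C1qa*, *C1qb* and *C1qc* listed at 0 in both day 3 libraries. The sum of 10 B-cell markers was 75.3 in cKO and 53.3 in WT cells on day 3 and 51.0 in cKO and 25.5 in WT cells on day 0. For 7 erythroid markers it was 14.0 in cKO and 29.1 in WT cells on day 3. On day 0 the erythroid sum was 158 in cKO and 412 in WT cells, the largest of these sums in both genotypes. The sum of 7 neutrophil markers was 1.64 in cKO and 1.45 in WT cells on day 3. On day 0 it was 33.1 in cKO and 62.9 in WT cells. In such bulk samples fewer cells of a type and less RNA per cell cannot be told apart. The part of these cells in the levels given below was not tested.

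*Cish* and *Socs2* had low levels on day 0 and were among the genes that rose most on day 3 in both genotypes. *Cish*, at chr9:107296689-107306906, was at 53.3 FPKM in cKO and 65.4 FPKM in WT cells on day 3, against 2.41 FPKM in cKO and 2.21 FPKM in WT cells on day 0. It rose 22.1-fold in cKO and 29.6-fold in WT cells by the FPKM as deposited, with log2 ratios of 4.41 and 4.83 that were larger than those of 98.2% and 98.9% of all entries measured. *Socs2*, at chr10:95411182-95417175, encodes a SOCS protein best known for restraining growth hormone signalling. It was at 20.5 FPKM in cKO and 24.6 FPKM in WT cells on day 3, against 0.902 FPKM in cKO and 0.742 FPKM in WT cells on day 0, and rose 22.7-fold in cKO and 33.1-fold in WT cells (log2 ratios of 4.36 and 4.87). Both genes thus had their higher day 3 level in WT and their higher day 0 level in cKO, although the day 0 values of both rest on few fragments.

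*Socs1*, whose protein blocks JAK catalytic activity directly, also rose in both genotypes. At chr16:10780489-10785536, it was at 28.7 FPKM in cKO and 33.9 FPKM in WT cells on day 3, against 4.31 FPKM in cKO and 3.06 FPKM in WT cells on day 0. Its log2 ratio of day 3 to day 0 was 2.71 in cKO and 3.43 in WT cells, a 6.68-fold and an 11.1-fold rise. The plot of the levels by library shows these 3 genes as the ones whose day 3 and day 0 values stand farthest apart.

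**Figure D1:**
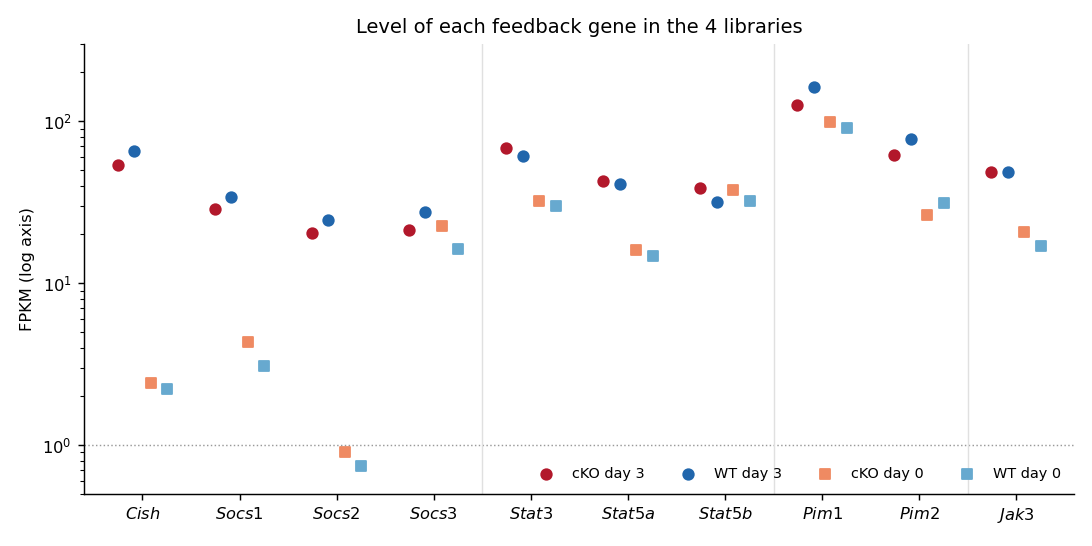
FPKM of the 10 genes (log axis) in the 4 libraries, 1 point per library, with day 3 as circles and day 0 as squares, cKO in reds and WT in blues; the dotted line marks 1 FPKM. *Pim1* is the highest and *Socs2* the lowest in every library, and the day 3 and day 0 values of *Cish*, *Socs1* and *Socs2* stand far apart whereas those of *Socs3* and *Stat5b* lie together.

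*Socs3* was not past the size rule in either genotype, unlike the other 3 SOCS family genes followed. Its protein binds the shared IL-6 receptor chain gp130 and is known as the main brake on STAT3. At chr11:117964975-117971256, it was at 21.2 FPKM in cKO and 27.4 FPKM in WT cells on day 3, against 22.5 FPKM in cKO and 16.2 FPKM in WT cells on day 0. The cKO libraries of both days lay between the WT libraries, so the log2 ratio of day 3 to day 0 was -0.09 in cKO and 0.76 in WT cells. The difference between these ratios, -0.85, was the largest of any of the 10 genes and was lower than that of all but 3.46% of the entries measured in both genotypes.

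The make-up of the family therefore turned over with stimulation in the same way in both genotypes. On day 3 *Cish* made up 43.1% of the summed FPKM of the 4 genes in cKO and 43.2% in WT cells, and *Socs3* 17.1% in cKO and 18.1% in WT cells. On day 0 *Socs3* alone made up 74.7% in cKO and 72.9% in WT cells, and *Cish* 8.0% in cKO and 9.95% in WT cells. The summed level was 124 FPKM in cKO and 151 FPKM in WT cells on day 3, against 30.1 FPKM in cKO and 22.2 FPKM in WT cells on day 0. The shares thus differed far more between days than between genotypes, while the sum was lower in cKO than in WT cells on day 3 and higher on day 0. The other 4 SOCS genes, *Socs4* to *Socs7*, lay between 2.44 and 12.2 FPKM in all libraries, and none was past the size rule in any comparison.

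**Figure D2:**
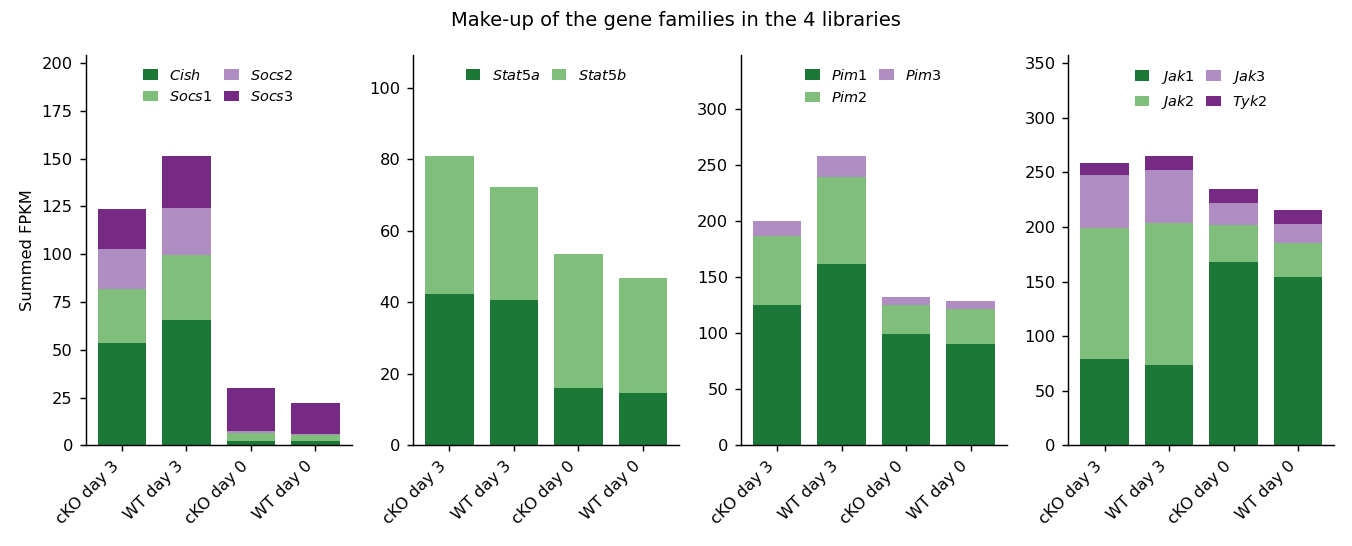
Summed FPKM (bars from 0) of the SOCS family feedback genes, the STAT5 genes, the PIM kinases and the Janus kinases in each library, with cKO left of WT and day 3 left of day 0, each bar divided by gene. *Socs3* fills most of the SOCS bar on day 0 and *Cish* the largest piece on day 3, and *Jak2* takes the leading place of *Jak1* on day 3, in both genotypes.

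The start regions of 9 of the 10 genes, all but *Socs2*, were searched for the palindromic motif of STAT sites, and the sequences that hold it are shown. A window of 300 bases, from 250 before to 50 after each gene start, was read from RefSeq on GRCm38.p6, 12 windows in all, and searched for TTCNNNGAA, which reads the same on both strands. It was found in 2 of the 12 windows, those of *Cish* and *Socs3*, and in 8.30% of 32851 windows of all genes. The windows are shown with each match in capitals, that of *Cish* from chr9:107296409-107296708 (plus strand) and that of *Socs3* from chr11:117969317-117969616 (minus strand).
Cish: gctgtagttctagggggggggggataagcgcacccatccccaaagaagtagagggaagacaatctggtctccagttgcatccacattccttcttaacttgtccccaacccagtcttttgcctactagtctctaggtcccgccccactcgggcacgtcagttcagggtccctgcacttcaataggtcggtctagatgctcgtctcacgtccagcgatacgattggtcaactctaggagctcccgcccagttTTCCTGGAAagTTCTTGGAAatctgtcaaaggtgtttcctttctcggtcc
Socs3: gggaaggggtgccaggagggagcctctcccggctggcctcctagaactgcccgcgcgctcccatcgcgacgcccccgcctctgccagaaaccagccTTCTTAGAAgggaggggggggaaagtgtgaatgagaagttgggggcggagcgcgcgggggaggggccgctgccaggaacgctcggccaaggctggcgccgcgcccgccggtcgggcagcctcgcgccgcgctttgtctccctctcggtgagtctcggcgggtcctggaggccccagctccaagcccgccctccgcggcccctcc
The *Cish* window holds a pair of matches, TTCCTGGAA beginning at base 1 of the annotated transcript start and TTCTTGGAA at base 12, and 2 or more matches stood in 0.457% of all windows. The *Socs3* window holds TTCTTAGAA, beginning 154 bases before the start. A match is a description of the letters only, and no binding was measured in these libraries.

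Among the STAT genes the pair encoding STAT5 changed in proportion. *Stat5a* and *Stat5b* are neighbours on chromosome 11 and encode closely related proteins. *Stat5a* (chr11:100859351-100885411) was at 42.5 FPKM in cKO and 40.7 FPKM in WT cells on day 3, against 16.1 FPKM in cKO and 14.8 FPKM in WT cells on day 0, and its log2 ratios of 1.39 in cKO and 1.45 in WT cells stayed just inside the size rule. *Stat5b* (chr11:100780731-100850585) was at 38.5 FPKM in cKO and 31.6 FPKM in WT cells on day 3, and at 37.4 FPKM in cKO and 32.1 FPKM in WT cells on day 0, with log2 ratios of 0.04 and -0.02. *Stat5b* was thus ordered by genotype and not by day. *Stat5a* accounted for 52.5% of the STAT5 sum in cKO and 56.3% in WT cells on day 3 and for 30.1% in cKO and 31.6% in WT cells on day 0. Because these genes share much of their coding sequence, reads may be divided between them with some error.

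*Stat3*, at chr11:100886810-100939511 and on the other side of *Stat5a*, was at 68.7 FPKM in cKO and 61.3 FPKM in WT cells on day 3, against 32.2 FPKM in cKO and 30.1 FPKM in WT cells on day 0. The log2 ratios, 1.09 in cKO and 1.02 in WT cells, were within the size rule and differed by 0.07. Of the other 7 Janus kinase and STAT genes, *Jak2* rose in both genotypes, with log2 ratios of 1.83 in cKO and 2.04 in WT cells, and *Stat4*, which carries the IL-12 signal, rose in cKO at 1.59 and was at 1.27 in WT cells. *Jak1* had log2 ratios of -1.09 in cKO and -1.06 in WT cells. None of the 7 was past the size rule between genotypes on either day.

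*Jak3*, which pairs with the common γ chain of the receptors for IL-2, IL-4, IL-7, IL-15 and IL-21, was at 48.4 FPKM in cKO and 48.7 FPKM in WT cells on day 3, against 20.6 FPKM in cKO and 17.1 FPKM in WT cells on day 0. Its log2 ratio of day 3 to day 0 was 1.23 in cKO cells and, just beyond the size rule, 1.51 in WT cells, a difference of -0.28 that was not tested. With a pseudocount of 1 FPKM the WT ratio was 1.46, inside the rule. The deposited locus, at chr8:71676383-71690577, also covers *Insl3*. *Jak3* took 18.7% of the summed FPKM of the 4 Janus kinase genes in cKO and 18.4% in WT cells on day 3, against 8.77% in cKO and 7.92% in WT cells on day 0.

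*Pim1* and *Pim2* were expressed well before stimulation. *Pim1*, at chr17:29490779-29497721, was the highest of the 10 genes in each library, at 125 FPKM in cKO and 162 FPKM in WT cells on day 3 and 99.0 FPKM in cKO and 90.7 FPKM in WT cells on day 0. Its log2 ratio of day 3 to day 0 was 0.34 in cKO and 0.83 in WT cells, and relative to the median of all entries it was -0.03 in cKO and 0.43 in WT cells, so the sign in cKO depends on the scaling. *Pim2* was at 61.6 FPKM in cKO and 77.5 FPKM in WT cells on day 3, against 26.5 FPKM in cKO and 31.2 FPKM in WT cells on day 0, and was the only one of the 9 genes measured on day 0 that was lower in cKO than in WT cells there. Its deposited locus, at chrX:7841244-7894492, also covers *Otud5* and *Slc35a2*. *Pim3*, the remaining PIM gene, was at 13.4 FPKM in cKO and 18.5 FPKM in WT cells on day 3, against 6.86 FPKM in cKO and 6.95 FPKM in WT cells on day 0. On day 3 all PIM genes had a lower level in cKO than in WT cells, none past the size rule: the log2 ratio was -0.37 for *Pim1*, -0.33 for *Pim2* and -0.47 for *Pim3*.

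Over the 10 genes, stimulation raised 3 in cKO cells (*Cish*, *Socs1* and *Socs2*) and 4 in WT cells (the same and *Jak3*), and lowered none in either. The shares of all entries past the rule were 17.3% up and 6.96% down in cKO cells and 19.0% up and 8.84% down in WT cells. A ratio above 0 was found for 9 of the 10 genes in each genotype, beside 63.7% of all entries in cKO and 63.5% in WT cells. The remaining ratio was below 0 in each, *Socs3* in cKO and *Stat5b* in WT cells, beside 36.3% of all entries in cKO and 36.5% in WT cells. The median log2 ratio of the 10 genes was 1.22 in cKO and 1.38 in WT cells, beside 0.36 and 0.40 for all entries measured. Relative to the median entry *Socs3* was at -0.45 in cKO and 0.35 in WT cells and *Stat5b* at -0.32 in cKO and -0.43 in WT cells.

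**Figure D3:**
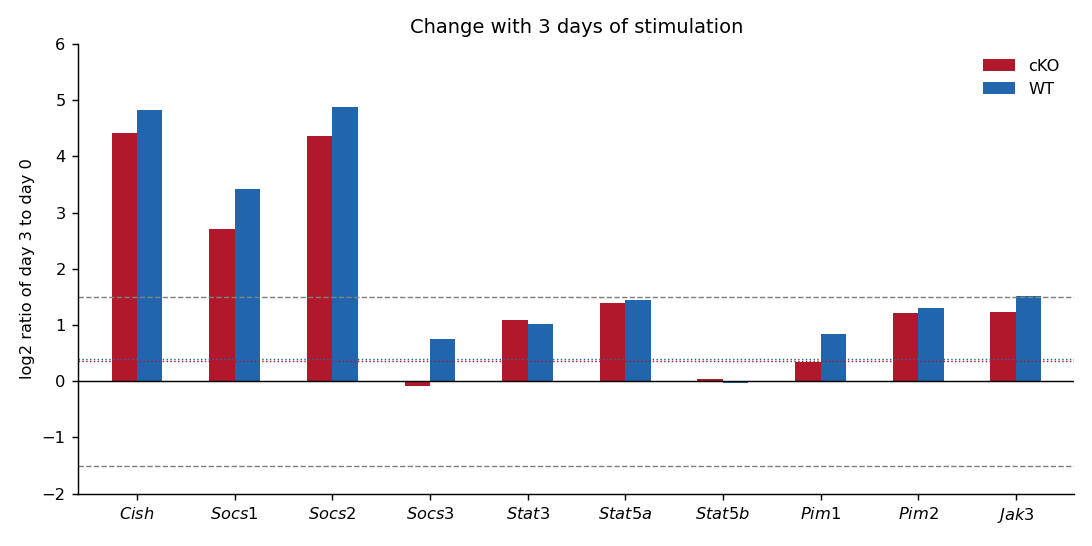
Log2 ratio of day 3 to day 0 for the 10 genes (bars from 0, cKO left of WT); dashed lines mark the size rule at 1.5 and -1.5 and dotted lines the medians of all entries, 0.36 in cKO and 0.40 in WT cells. *Cish*, *Socs1* and *Socs2* are past the rule in both genotypes, and the cKO bar is the lower for 8 of the 10 genes.

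Whether loss of *Cic* altered these genes was read from the ratios of cKO to WT on each day. None of the 10 genes was past the size rule on day 3, and none of the 9 measured on day 0, where *Socs2* was under 1 FPKM in both genotypes. The shares of all entries past it were 0.743% up and 1.21% down in cKO on day 3 and 0.486% up and 1.81% down on day 0. On day 3 the ratios ran from -0.37 for *Socs3* to 0.28 for *Stat5b* with a median of -0.25, beside -0.05 for all entries, and 7 of 10 were below 0, as were 57.7% of all entries. All 4 SOCS family genes, both PIM genes and, at -0.01, *Jak3* were below 0, and the 3 STAT genes were above 0, as were 42.3% of all entries. Relative to the median entry *Jak3* was at 0.04. On day 0 the ratios ran from -0.23 for *Pim2* to 0.48 for *Socs1* with a median of 0.13, beside 0.00171 for all entries, and 8 of 9 were above 0, as were 50.3% of all entries, while 1 of 9, *Pim2*, was below, as were 49.7%.

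The counting error behind these ratios was estimated from the low FPKM values, which fall in steps of 1 fragment and set the scale of the libraries at about 8820000 fragments in cKO and 8240000 in WT cells on day 3 and 8790000 in cKO and 7180000 in WT cells on day 0. *Cish* on day 0 then rests on about 60 fragments in cKO and 45 in WT cells, *Socs1* on 46 and 27, and *Socs2* on 34 and 23, whereas *Pim1* has 1716 and 1284. The 95% exact counting interval of the cKO to WT log2 ratio on day 0 accordingly ran from -0.46 to 0.71 for *Cish* and from -0.24 to 1.22 for *Socs1*, so no difference between genotypes was detectable for either at this depth. For *Socs3* it ran from -0.55 to -0.20 on day 3 and from 0.26 to 0.69 on day 0, and for *Pim1* from -0.45 to -0.29 on day 3 and from 0.02 to 0.23 on day 0. These intervals take every fragment as coming from the longest annotated coding transcript and cover counting error only, not the spread between mice or cultures.

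**Figure D4:**
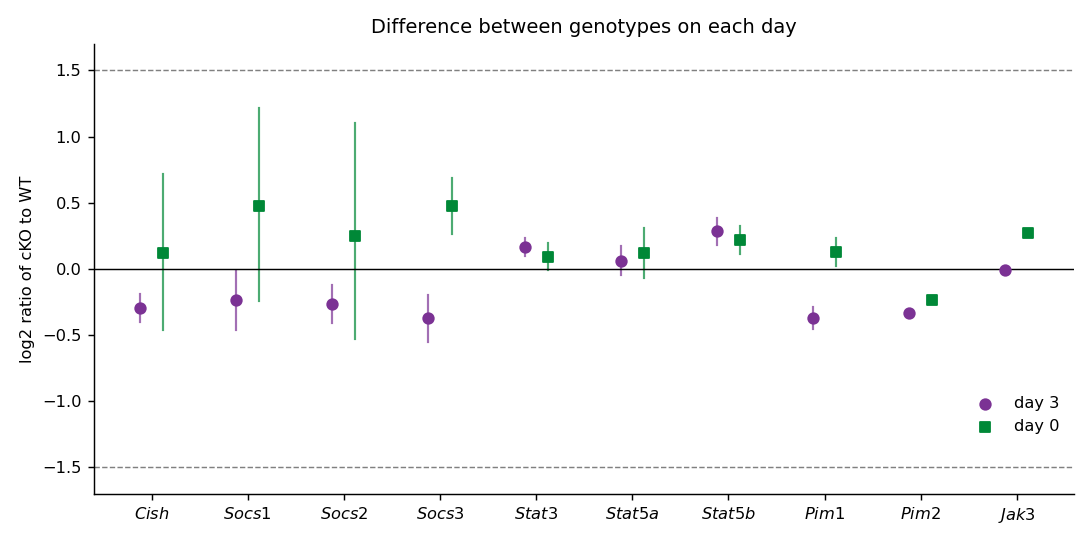
Log2 ratio of cKO to WT for the 10 genes on day 3 (circles, left) and day 0 (squares, right); vertical lines are 95% exact counting intervals, drawn for the 8 genes whose locus holds 1 gene, and dashed lines mark the size rule at 1.5 and -1.5. All points lie inside the rule, and the SOCS family points are below 0 on day 3 and above 0 on day 0, where *Socs2* was under 1 FPKM in both genotypes and the intervals of *Cish*, *Socs1* and *Socs2* span 0.

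The stimulation ratio was smaller in cKO than in WT cells for 8 of the 10 genes, as it was for 54.3% of all entries measured in both genotypes. The difference of the ratios had a median of -0.35 over the 10 genes, beside -0.03 over all entries. It was -0.41 for *Cish*, -0.72 for *Socs1*, -0.51 for *Socs2*, -0.50 for *Pim1* and -0.10 for *Pim2*, and between -0.06 and 0.07 for the 3 STAT genes. The counting intervals of the stimulation ratio overlapped between genotypes for *Cish*, from 4.10 to 4.87 in cKO and from 4.47 to 5.36 in WT cells. Those of *Socs1* (2.29 to 3.22 and 2.89 to 4.08) and *Socs2* (3.99 to 5.03 and 4.43 to 5.69) overlapped too. Those of *Socs3* (-0.27 to 0.09 and 0.55 to 0.96) and *Pim1* (0.25 to 0.43 and 0.74 to 0.93) did not. Of 7 marker genes of naïve T cells, none was past the size rule between genotypes on day 3, and 6 had a ratio of cKO to WT above 0 there, beside 42.3% of all entries. The list median was 1.08 on day 3 and 0.07 on day 0, beside -0.05 and 0.00171 for all entries. The summed FPKM was 609 in cKO and 474 in WT cells on day 3 and 1104 in cKO and 1140 in WT cells on day 0. The part of these markers in the smaller ratios was not tested.

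The upstream genes of the pathway were described in the same way. Of 17 cytokine receptor chains measured, 6 rose and 2 fell on day 3 in cKO cells, beside 17.3% up and 6.96% down of all entries. In WT cells 4 rose and 3 fell, beside 19.0% up and 8.84% down of all entries. None of the chains was past the size rule between genotypes on either day. *Il2ra*, *Il2rb*, *Il12rb1* and *Il12rb2* rose in both genotypes, and *Il6ra* and *Il6st* fell in both. *Il10ra*, at 1.75 in cKO and 0.999 in WT cells, was past the rule in cKO cells only. *Il15ra*, at 1.84 in cKO and 1.486 in WT cells, was just inside the rule in WT cells. *Il7r*, at -1.48 in cKO and -1.51 in WT cells, lay on either side of the rule by a small margin. Neither the cKO call of *Il15ra* nor the WT call of *Il7r* held with a pseudocount of 1 FPKM. *Il2rb*, the signalling chain that IL-2 and IL-15 receptors share, was at 196 FPKM in cKO and 275 FPKM in WT cells on day 3, against 18.6 FPKM in cKO and 20.3 FPKM in WT cells on day 0. *Il2rg*, the common γ chain that JAK3 binds, was at 122 FPKM in cKO and 129 FPKM in WT cells on day 3 and at 142 FPKM in cKO and 132 FPKM in WT cells on day 0. *Il6ra*, the receptor chain specific to IL-6, fell with log2 ratios of -3.08 in cKO and -3.13 in WT cells, and *Il6st*, which encodes gp130, had 24.6 FPKM in cKO and 13.9 FPKM in WT cells on day 3 and 105 FPKM in cKO and 51.9 FPKM in WT cells on day 0. In both genotypes *Il2rb* thus rose while both chains of the IL-6 receptor fell.

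Among 11 cytokine genes measured on day 3 none was past the size rule upward in cKO against WT cells. Past it downward were 4, *Il9*, *Il10*, *Il21* and *Ifng*, of which *Il9* was listed at 0 in cKO. The share of all entries lower there was 1.21%. A ratio below 0 was found for 10 of the 11, beside 57.7% of all entries, and the list median was -1.37, beside -0.05 for all entries. With stimulation 9 of 10 measured cytokine genes were higher in cKO and 10 of 11 in WT cells, beside 17.3% and 19.0% of all entries. Among them were *Il2*, *Il3*, *Il4*, *Il10*, *Il21*, *Csf2*, *Lif* and *Osm* in both genotypes, some of them listed at 0 on day 0. *Il2* was at 5.87 FPKM in cKO and 7.83 FPKM in WT cells on day 3, against 0.269 FPKM in cKO and 0.168 FPKM in WT cells on day 0. The 9 other inhibitors of the pathway, PIAS proteins, phosphatases and *Sh2b3*, held no gene past the size rule in any of the 4 comparisons. Their largest stimulation ratio was that of *Ptpn2*, a phosphatase of JAK1 and JAK3, at 1.40 in cKO and 1.47 in WT cells. Of 12 other genes known as induced by IL-2 and STAT5, 7 rose on day 3 in cKO and 8 in WT cells, beside 17.3% and 19.0% of all entries. Between genotypes on day 3 none was higher and 3 were lower in cKO cells (*Gzmb*, *Prf1* and *Prdm1*), beside 1.21% of all entries, with a median log2 ratio of -0.26. Markers of CD8 T and natural killer cells, which also make granzyme B and perforin, summed over 7 genes to 66.3 FPKM in cKO and 103 FPKM in WT cells on day 3. The sum was 38.1 FPKM in cKO and 48.1 FPKM in WT cells on day 0. *Nkg7* alone held 45.4 FPKM of the day 3 sum in cKO and 74.9 FPKM in WT cells. It also rose with stimulation, with log2 ratios of 2.15 in cKO and 2.52 in WT cells, so the day 3 sum mostly follows this gene. On day 3 none of the 5 measured was past the size rule, and 4 had a ratio below 0, beside 57.7% of all entries. *Klrd1* was above 0, at 0.07. *Cd8a* was at 3.59 FPKM in cKO and 8.36 FPKM in WT cells, and *Ncr1* was listed at 0 in both. *Cd8b1* was at 5.81 FPKM in cKO and 6.98 FPKM in WT cells on day 3, and at 7.27 FPKM in cKO and 4.11 FPKM in WT cells on day 0. The part of CD8 T and natural killer cells in the lower *Gzmb* and *Prf1* was not tested. Within the list of genes known as induced by IL-2 and STAT5, *Myc* and *Bcl2l1*, genes of growth and survival, had ratios of cKO to WT of -0.03 and 0.00399 on day 3. Of the 2 genes known as lowered by IL-2 and STAT5, *Bcl6* was higher in cKO on day 3 with a log2 ratio of 2.22, beside 0.743% of all entries. *Il7r* had a ratio of -0.55. The day 3 level of *Bcl6* was 7.89 FPKM in cKO and 1.61 FPKM in WT cells, the latter near the minimum of 1 FPKM. With a pseudocount of 1 FPKM the ratio of *Bcl6* was 1.77. Of 6 measured genes known as induced by STAT3 in T cells, *Bcl3*, *Batf* and *Il21* rose on day 3 in both genotypes. The shares of all entries that rose were 17.3% in cKO and 19.0% in WT cells, and 6.96% and 8.84% fell. *Junb*, at -1.51 in cKO and -1.15 in WT cells, was just past the rule in cKO cells. *Bcl6*, at -0.24 in cKO and -1.99 in WT cells, was past it in WT cells. Between genotypes on day 3 *Bcl6* was higher and *Il21* and *Maf* were lower in cKO cells, *Maf* with a log2 ratio of -1.81. Of all entries 0.743% were higher and 1.21% lower there.

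**Figure D5:**
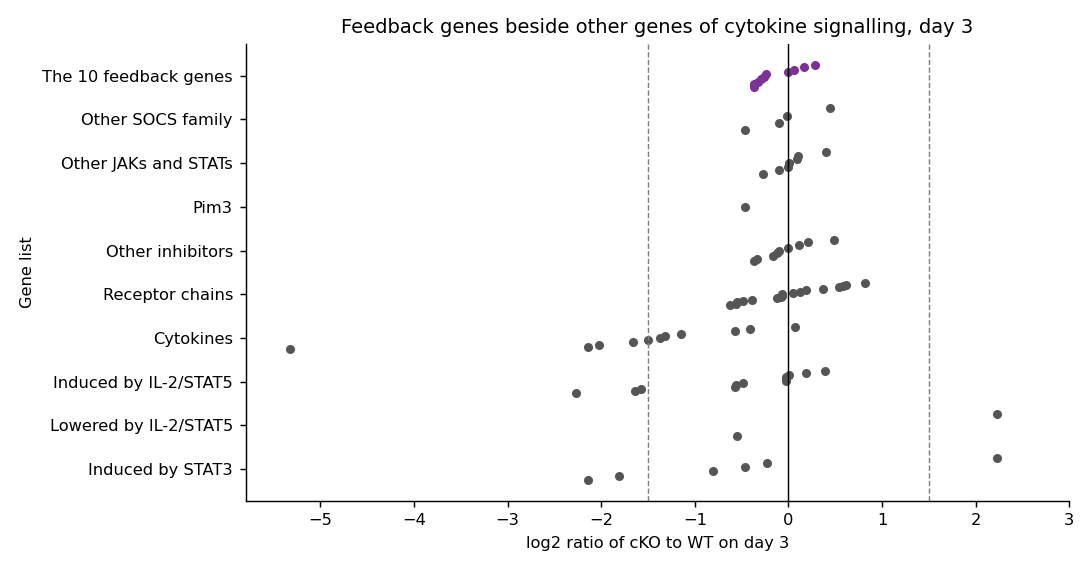
Log2 ratio of cKO to WT on day 3 for each measured gene (1 point per gene, spread vertically for view) of the 10 feedback genes and of 9 other lists of cytokine signalling genes, some of which share genes; dashed lines mark the size rule. The 10 genes lie between -0.37 and 0.28, and the points past the rule are cytokines and genes of the lists below them; the leftmost is *Il9*, listed at 0 in cKO, whose ratio depends on the 0.1 added.

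The order of the 10 genes by level changed with stimulation more than with genotype. *Pim1* was first and *Socs2* last in every library. On day 3 *Cish* had rank 4 in cKO and rank 3 in WT cells, and on day 0 it had rank 9 in both. *Socs3* had rank 9 in both on day 3, and rank 5 in cKO and rank 6 in WT cells on day 0. Several neighbours lay close, such as *Socs3* over *Socs2* in cKO on day 3, by 0.05 on the log2 scale, and without replicates their order cannot be called.

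The likeness of other genes was measured as the distance between profiles of log2(FPKM + 0.1) over the 4 libraries, each less its own mean, among 8777 gene entries with at least 5 FPKM in some library. The profile nearest to that of *Cish* was *Socs2*, at a distance of 0.10, and *Cish* was the nearest to *Socs2*. For *Socs1* the nearest were *Gfi1* at 0.09, *Snx9* and *Magohb*, and for *Socs3* they were *Bahd1* at 0.08, *Wdr8* and *Btbd10*. The nearest to *Stat3* was *S100pbp*, to *Stat5a* *Aifm1*, to *Stat5b* *Ercc5*, to *Pim1* *Tmem248*, to *Pim2* *Ufc1* and to *Jak3* *Tubgcp2*, at distances of 0.02 to 0.04. Apart from the pair of *Cish* and *Socs2*, no member was among the 3 nearest of another. With 4 points per profile such distances only describe these libraries.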

How the data were processed

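RNA of 4 libraries of CD4+ T cells was analysed, 1 for each genotype and time. Libraries were made with an Illumina TruSeq kit and read on a NextSeq instrument; the submitters' processing notes name CASAVA, TopHat2 2.0.10, Cufflinks 2.1.1 and mm9. The authors deposited 4 tables of FPKM values with ratios, p-values and q-values of their own comparisons, and these last columns were not used. Levels were taken from the FPKM columns of the within-genotype tables, which were normalized separately. The columns of the tables headed cKO against WT held weighted means of libraries and gave only a common scale, used as an alternative. Another 16 annotation tables were not used here. Deposited locus ends equal those of GRCm38.p6 for 44.4% of 21286 genes and those of mm9 for 0.723% of 19909, so positions are given on GRCm38. A value of 0 can be a failed estimate, and where a name stood on more than 1 locus (411 names) the locus with the largest mean level was taken.

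Ratios were log2((a + 0.1)/(b + 0.1)), which understates changes of weak genes. The size rule was an absolute ratio over 1.5 with at least 1 FPKM in either library. No test was run, since with 1 library per group no group has a spread of its own. Counting intervals (95%, exact Clopper-Pearson) used fragments estimated from steps of low FPKM values. Named are all 10 members and most pathway genes past the size rule or, failing that, one or more of the most changed of a list. Some markers of a list, not always those of the highest level, and up to 3 nearest profiles of each member are also named. Other genes of the pathway that help to read a result (such as *Il2*, *Il2rg* and *Jak1*) were added after their values were seen. The members and the gene lists were chosen with earlier results of these data known. The alternatives tried were a pseudocount of 0.01 or of 1, no FPKM minimum or one of 5, a size threshold of 1, centring on the median entry, the common scale and the sum over loci of a name. The scripts were tested on simulated data and run with numpy 2.4.6, scipy 1.17.1, pandas 2.3.3 and matplotlib 3.10.9 under Python 3.11.15. The values of 1 marker gene are not reported here.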

Additional observations from a re-analysis of the deposited data

Results flagged for a closer look

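Some genes pointed in opposite directions in the 2 genotypes or on the 2 days, with 1 library each, and none of these differences was tested. The ratio of cKO to WT was below 0 on day 3 and above 0 on day 0 for *Cish*, *Socs1*, *Socs3*, *Pim1* and *Jak3*, and the day 3 log2 ratio less the day 0 log2 ratio was -0.41 for *Cish*, -0.72 for *Socs1*, -0.85 for *Socs3*, -0.50 for *Pim1* and -0.28 for *Jak3*. The counting intervals lay on opposite sides of 0 on the 2 days for *Socs3* and *Pim1*. *Socs3* also had ratios of day 3 to day 0 of opposite sign in cKO and WT cells, which is the same difference of -0.85. *Stat5b* had ratios of day 3 to day 0 of 0.04 in cKO and -0.02 in WT cells, a difference of 0.065, and its counting interval spanned 0 in both genotypes.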

How the results depend on the processing

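The number of alternatives run was 8, and none reversed a gene past the size rule. Of 390 values of the 10 genes under these alternatives, 378 kept their side of the threshold with little shift, 3 were no longer past it and 7 came past it. The remaining 2, both of *Socs2* with a pseudocount of 1, shifted more but stayed past it. With a size threshold of 1 on the log2 scale, 7 of the 10 genes were higher on day 3 in cKO and 7 in WT cells, beside 28.7% of all entries in cKO and 30.5% in WT cells. Centring on the median entry gave median stimulation ratios of the 10 genes of 0.86 in cKO and 0.98 in WT cells, because all entries had medians of 0.36 and 0.40. The call of *Jak3* in WT cells was lost with a pseudocount of 1 (1.46), with centring (1.11) and on the common scale (1.45), and *Socs2* had ratios of 3.50 in cKO and 3.88 in WT cells with a pseudocount of 1. No count of members called between genotypes changed under any alternative. No paired analysis was possible because each group holds 1 library and all carry the number 1. Depth limits the day 0 values of *Cish*, *Socs1* and *Socs2* most, and values between genotypes come from separately normalized tables, whose implied common scale shifts the log2 ratio by -0.017 on day 3 and -0.015 on day 0.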
